A study of Mus musculus with 2 samples.

Results

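Transcript levels of 10 genes that gate entry into the cell cycle were compared between sorted populations of mouse CD4+ T cells. The genes are the D cyclins Ccnd2 and Ccnd3, the kinases Cdk4 and Cdk6, the CDK inhibitors Cdkn1a, Cdkn1b, Cdkn2a, Cdkn2c and Cdkn2d, and the pocket protein gene Rb1. They were chosen by name, with earlier results of these data known, as were the gene lists below. Each of the 10 matched 1 of the 41592 rows of the deposited expression table. Of the 10, 9 had a mean of at least 1 FPKM over the libraries, a minimum that 12820 rows passed, and Cdkn2a did not. FPKM is a fragment count scaled to gene length and library size, and comparisons between genes rest on the length used for each.

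Both populations were taken from C57BL/6 mice, 6 to 8 weeks old, of the genotype Foxp3 dCNS1-Cre-R26-YFP, using lymph nodes and spleen. CNS1 names a conserved, noncoding stretch of Foxp3, and a Cre-dependent YFP reporter at Rosa26 keeps marking a cell and its progeny once Cre has been active. How Thy1.1 is encoded is not given in the sources used here. CD4+ cells were enriched on magnetic beads and sorted as YFP-positive and either Thy1.1-negative or Thy1.1-positive, with a purity usually above 97%. The series sets regulatory T (Treg) cells of thymic origin against exFoxp3 precursors, but its design text gives 1 marker pair for both, so the populations carry the names of their titles' markers. Each population had 1 library, of 18536339 counted reads for Thy1.1-negative and 18600581 for Thy1.1-positive cells. The number of mice and any pooling are likewise not given. No difference below has a replicate check, an SD or a p-value. Where values come in pairs, the Thy1.1-negative library stands first. Ratios are Thy1.1-negative over Thy1.1-positive, and each interval is a 95% interval for counting error alone, which leaves out variation between mice, sorts and library preparations and takes reads as independent molecules, which PCR copies are not.

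A T cell leaves the resting state when D cyclins accumulate, join Cdk4 or Cdk6 and phosphorylate the Rb protein, which then releases E2F transcription factors to switch on the genes of DNA replication. CDK inhibitors of the INK4 family (the products of Cdkn2a, Cdkn2c and Cdkn2d) bind Cdk4 and Cdk6 directly, whereas those of the CIP/KIP family (Cdkn1a, which encodes p21, and Cdkn1b, which encodes p27) bind assembled complexes of cyclins and kinases. In lymphocytes p27 is best known as a brake of resting cells, p21 as a target of p53, and the Cdkn2c product p18 as a restraint on division after antigen receptor signalling.

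Upstream sequences are shown for 3 members that illustrate the results: Cdkn2c (its downstream start), which had the largest difference of the measured members, Cdkn2a (its upstream start), whose row combines transcripts from separate start sites, and Ccnd3 (its upstream start), the member with the highest deposited FPKM. RefSeq windows on GRCm38.p6, each reaching from 250 bases before a start site to 50 bases after it, were matched by symbol for 8 of the 10 genes, 12 windows in all; Ccnd2 and Rb1 had none. The stretches printed run 5′ to 3′ on the gene's strand and leave out bases that GENCODE M21 annotates as exon. They are chr4:109665373-109665609 (minus strand) for Cdkn2c, chr4:89294654-89294869 (minus strand) for Cdkn2a and chr17:47504801-47505050 (plus strand) for Ccnd3. Capitals mark a match to a searched motif, and the Cdkn2c stretch has none.
Cdkn2c: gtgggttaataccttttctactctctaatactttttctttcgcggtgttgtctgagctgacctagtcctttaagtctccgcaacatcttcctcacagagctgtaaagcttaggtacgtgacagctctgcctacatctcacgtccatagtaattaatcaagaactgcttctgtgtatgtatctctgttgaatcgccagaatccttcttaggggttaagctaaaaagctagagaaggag
Cdkn2a: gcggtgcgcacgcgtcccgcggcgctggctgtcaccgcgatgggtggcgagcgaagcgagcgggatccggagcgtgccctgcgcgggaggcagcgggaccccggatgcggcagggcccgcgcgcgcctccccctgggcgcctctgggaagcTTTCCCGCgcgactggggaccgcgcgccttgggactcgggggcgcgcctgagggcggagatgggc
Ccnd3: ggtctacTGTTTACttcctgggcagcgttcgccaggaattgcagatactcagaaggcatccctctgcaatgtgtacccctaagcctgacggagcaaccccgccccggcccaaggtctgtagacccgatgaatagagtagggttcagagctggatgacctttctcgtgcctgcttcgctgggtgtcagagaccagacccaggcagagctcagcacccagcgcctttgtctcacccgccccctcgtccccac

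Both strands of the windows were searched for E2F sites (TTTGGCGC, TTTCCCGC, TTTCGCGC or TTTGCCGC), a FOXO site (GTAAACA), a STAT5 site (TTCNNNGAA) and the CHR element of late cell cycle genes (TTTGAA). Among the 12 windows of the members, 2 held a match, and these matches overlapped no other motif. The window of the upstream Cdkn2a start held an E2F match from position -99, counted from the start site, and that of the upstream Ccnd3 start a FOXO match on the opposite strand from position -243. Of all 32851 RefSeq windows, 2.26% held an E2F match, 3.65% a FOXO match, 8.30% a STAT5 match and 17.9% a CHR match. A match is a description of letters, and its absence says only that these letters are not in the window.

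By deposited FPKM the order of the members was alike in both libraries, and 8 of the 9 measured members differed little between them. Ccnd3 stood first, followed by Cdkn1b, Rb1, Cdkn1a, Cdk4, Ccnd2, Cdkn2d, Cdk6, Cdkn2c and Cdkn2a. Counting intervals of neighbours overlapped only for Cdkn1a and Cdk4 and for Cdk6 and Cdkn2c in the Thy1.1-negative library, and only for Cdk4 and Ccnd2 in the Thy1.1-positive library. This order rests on the gene lengths behind the FPKM values, which were 1181 bases for Ccnd3 and 1183 for Rb1, where the longest annotated transcripts have 3858 and 4656, but 5701 for Ccnd2, where the longest has 6330. Scaled to the longest transcript instead, an alternative chosen after seeing the data, Cdkn1b came first in both libraries, at 69.6 and 64.5 FPKM, and Ccnd2 at rank 2, at 40.1 and 44.0 FPKM. On that scale Ccnd3 came at rank 3, at 33.4 and 37.03 FPKM, Rb1 at rank 7, at 19.2 and 17.5 FPKM, and Cdkn2c at rank 8, ahead of Cdk6. Scaled to the summed exons, also chosen after seeing the data, the order differed between the libraries. There Ccnd3 came at ranks 7 and 6, at 14.7 and 16.3 FPKM, and Cdkn2d at ranks 3 and 4. The ratio of a gene between the libraries does not depend on its length. The rule of size asked for a gap of 1 or more in log2(FPKM + 1), which is 2-fold on that scale. No member passed, in either direction, where 1.93% of all 12820 genes were higher in Thy1.1-negative cells, 1.15% lower and 3.08% past the rule in either direction. Of the 9, 6 lay above 0 and 3 below, where 55.1% of all genes lay above 0. Cdkn2c missed the rule narrowly, at a log2(FPKM + 1) difference of 0.998, and passed it as a plain FPKM ratio of at least 2, as did 3.58% of all genes. Only 247 of the 12820 genes, those that passed the rule, had a larger difference than Cdkn2c.

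**Figure D1:**
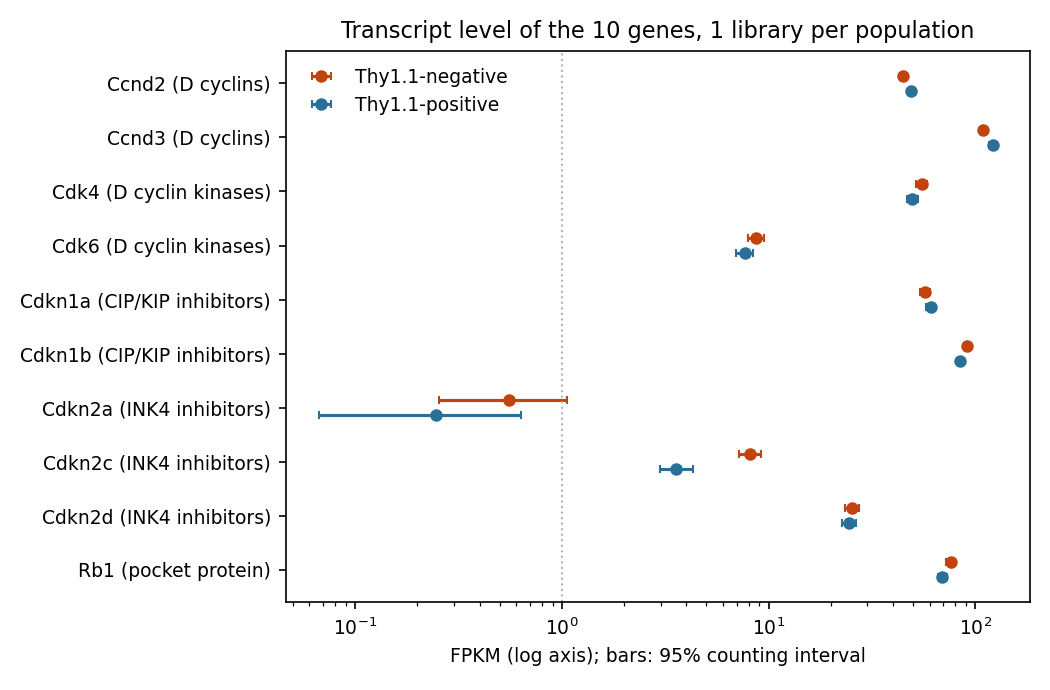
Level of each gene in FPKM (log axis) in the Thy1.1-negative (orange) and Thy1.1-positive (blue) library, 1 library each, with bars for the 95% counting interval and a dotted line at 1 FPKM. Points of a gene lie close together except for Cdkn2c, at 8.14 and 3.58 FPKM, and Cdkn2a, which is below 1 FPKM in both.

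Both D cyclins, the regulatory subunits that respond to growth signals, were slightly lower in the Thy1.1-negative library. Ccnd3 stood at 109 and 121 FPKM, a ratio of 0.903 (0.854 to 0.955). Ccnd2 stood at 44.5 and 48.9 FPKM, a ratio of 0.910 (0.875 to 0.947). Their proportion to each other was the same within counting error, with a ratio of Ccnd2 to Ccnd3 that differed by 1.01 times between the libraries (0.942 to 1.08). Both signs turned when the libraries were scaled by the upper quartile of their values above 0, where the log2 differences were 0.11 for Ccnd3 and 0.12 for Ccnd2. Each quartile was taken over the library's own genes above 0, 28107 and 25709 genes, so the quartiles cover unlike sets. Scaling by them moved the median difference of all genes from 0.03 to 0.26. Relative to the median gene, Ccnd3 lay at -0.18 as deposited and -0.15 after this scaling, and Ccnd2 at -0.16 and -0.14. As deposited, 42.9% of all genes had a smaller absolute difference than Ccnd3 and 39.6% than Ccnd2, so shifts of this size were common. Ccnd1, the remaining D cyclin, was near the minimum mean of 1 FPKM set here, at 1.03 and 1.33 FPKM, from 40 and 52 reads.

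The catalytic partners of the D cyclins were slightly higher in Thy1.1-negative cells. Cdk4 stood at 54.9 and 49.6 FPKM, a ratio of 1.11 (1.02 to 1.21). Cdk6, the close relative of Cdk4, stood at 8.71 and 7.66 FPKM, with 1 inside its interval (0.999 to 1.30). The ratio of Cdk6 to Cdk4 differed by 1.03 times between the libraries (0.877 to 1.20). Rb1, whose product these kinases inactivate, stood at 75.7 and 68.99 FPKM, a ratio of 1.098 (1.02 to 1.18). For each of Cdk4, Cdk6 and Rb1, between 30.2% and 34.5% of all genes had a more positive difference, so shifts of this size were common in the table.

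Both CIP/KIP inhibitors lay near a ratio of 1. Cdkn1b, the p27 gene, stood at 91.2 and 84.6 FPKM, a ratio of 1.08 (1.04 to 1.12) from 5870 and 5463 reads. It had the highest level of the 5 inhibitors by deposited FPKM and by each other length tried. Cdkn1a, the p21 gene, stood at 56.9 and 60.6 FPKM, a ratio of 0.938 whose interval of 0.868 to 1.02 included 1, and its sign turned after scaling by the upper quartile, to a log2 difference of 0.16. Within each library the level of Cdkn1a was 0.624 times that of Cdkn1b in Thy1.1-negative and 0.717 times in Thy1.1-positive cells. The ratio of these proportions was 0.870 (0.798 to 0.949), and it does not depend on how the libraries are scaled.

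The INK4 inhibitors split: Cdkn2c was higher in Thy1.1-negative cells, Cdkn2d lay near a ratio of 1, and Cdkn2a was barely detected. Cdkn2c, which encodes p18, stood at 8.14 and 3.58 FPKM, from 270 and 119 reads. Its ratio was 2.28 (1.83 to 2.85), the largest among the 9 measured members, and 1.93% of all genes had a larger difference on the log2(FPKM + 1) scale. Cdkn2d, which encodes p19 of the INK4 family, stood at 25.3 and 24.4 FPKM, with 1 inside its interval (0.923 to 1.16). Cdkn2c therefore amounted to 0.321 times the level of Cdkn2d in Thy1.1-negative and 0.146 times in Thy1.1-positive cells, a ratio of these proportions of 2.196 (1.71 to 2.83) that is free of the scaling between libraries. These proportions use the deposited lengths, whereas the ratio between them does not depend on length. The same comparison with Cdk6, a kinase that p18 binds, gave 0.935 and 0.467 times the Cdk6 level, a ratio of 2.001 (1.55 to 2.60).

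Cdkn2a stood at 0.556 and 0.246 FPKM. These values rest on 9 and 4 reads, and the ratio of 2.26 has an interval of 0.630 to 10.03, so no difference was detectable at this depth. The gene encodes p16 of the INK4 family and, from its upstream start and in another reading frame, the p53 regulator p19Arf, and the row does not separate them. Cdkn2b, which encodes the INK4 protein p15, was as low, at 0.581 and 0.540 FPKM, and Cdkn1c, the CIP/KIP gene for p57, stood at 3.64 and 3.26 FPKM with an interval of 0.862 to 1.45.

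**Figure D2:**
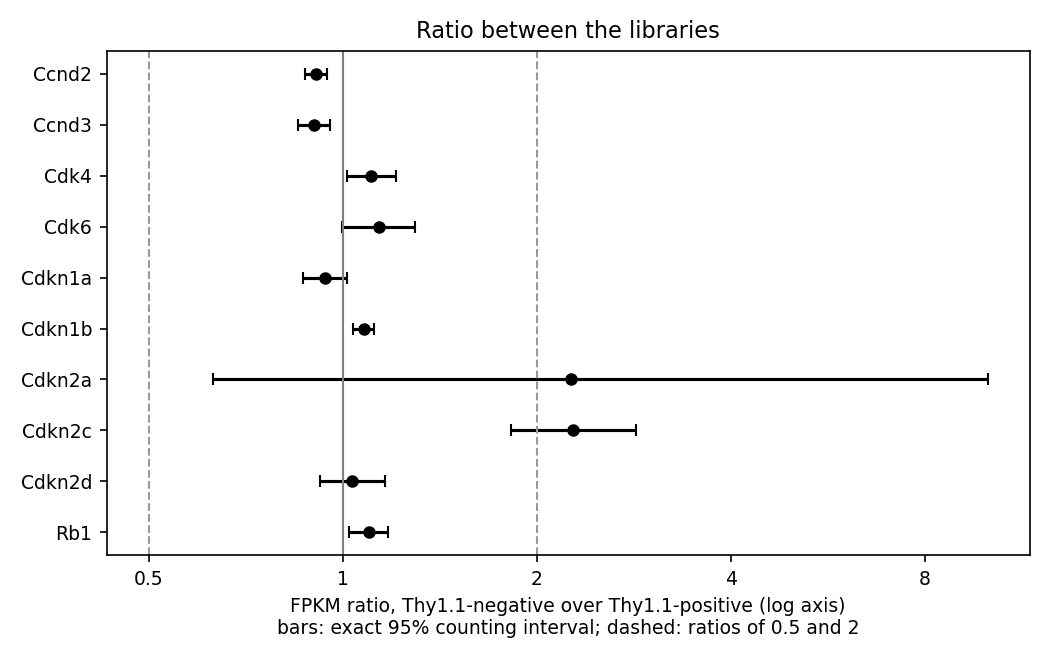
FPKM ratio of each gene, Thy1.1-negative over Thy1.1-positive (log axis), with bars for the exact 95% counting interval and dashed lines at ratios of 0.5 and 2. The interval of Cdkn2c, 1.83 to 2.85, lies to the right of the intervals of the 8 other measured genes, and that of Cdkn2a spans 0.630 to 10.03.

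Summed by class, the D cyclins stood at 154 and 169.9 FPKM, a ratio of 0.905 (0.869 to 0.943). Cdk4 and Cdk6 together stood at 63.6 and 57.2 FPKM, a ratio of 1.11 (1.03 to 1.20), and the INK4 genes at 34.04 and 28.3 FPKM, a ratio of 1.20 (1.09 to 1.33). Most of the INK4 gap came from Cdkn2c, which made up 23.9% and 12.6% of the sum. Cdkn2d, at 74.4% and 86.5% of it, had 1 inside its own interval (0.923 to 1.16). The CIP/KIP genes, at 148 and 145 FPKM, had an interval of 0.982 to 1.06. Proportions between classes within a library do not depend on the scaling between libraries, but the sums weight genes by the lengths behind the FPKM. CIP/KIP transcripts amounted to 0.963 times the D cyclin level in Thy1.1-negative and 0.855 times in Thy1.1-positive cells, a ratio of 1.13 (1.06 to 1.19). Kinase transcripts amounted to 0.414 and 0.337 times the D cyclin level, a ratio of 1.23 (1.13 to 1.34), and INK4 transcripts to 0.221 and 0.166 times, a ratio of 1.33 (1.19 to 1.48). All 3 ratios divide by the D cyclin sum, itself at 0.905, so they are not separate shifts. The CIP/KIP sum taken alone had 1 inside its interval. With the longest transcript or the summed exons as length, added after seeing the data, these 3 ratios stayed inside their intervals. Without the gene of highest FPKM in each class, Cdkn2d and Ccnd3, the INK4 ratio became 2.4995, and without Cdkn1b and Ccnd3 the CIP/KIP ratio became 1.03. INK4 against kinase transcripts, at 0.535 and 0.494 times, had an interval of the ratio that included 1 (0.955 to 1.23).

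**Figure D3:**
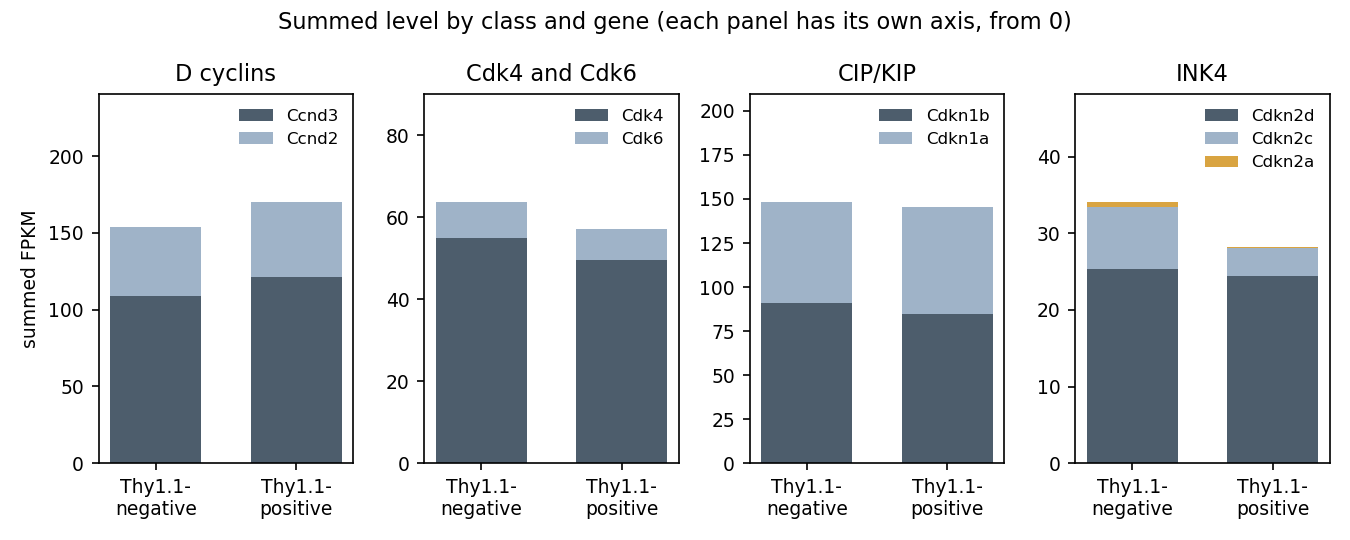
Summed FPKM by class in each library, with the part of each gene in its own shade; every panel has its own axis starting at 0. D cyclins sum to 154 and 169.9 FPKM, and the Cdkn2c segment of the INK4 panel is 8.14 and 3.58 FPKM.

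Several other genes of the pathway passed the rule of size, most of them factors downstream of Rb. The list held 37 genes of the table, 36 with a mean of 1 FPKM or more, of which 5 passed 2-fold upward in Thy1.1-negative cells and none downward, beside 1.93% and 1.15% of all genes. Their median log2 difference was 0.17, against 0.11 for the 9 measured members and 0.03 for all genes. The 5 were E2f8 and E2f7, which encode repressive E2F factors, E2f2, an activating E2F, Mybl2, a partner of the MuvB complex, and Cks1b, a cofactor in the degradation of p27. E2f2 stood at 25.5 and 11.7 FPKM, a ratio of 2.19 (1.98 to 2.42). E2f7 stood at 3.57 and 0.884 FPKM, and E2f8 at 2.74 and 0.222 FPKM, the latter from 123 and 10 reads. Both E2f7 and E2f8 passed the minimum mean only through the Thy1.1-negative library. Mybl2 stood at 9.77 and 3.89 FPKM, and Cks1b at 12.4 and 4.25 FPKM. With a pseudocount of 5 none of the 36 passed.

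E cyclins and Cdk2, which act at the passage from G1 to S phase, were higher in Thy1.1-negative cells without passing 2-fold. Ccne2 stood at 10.1 and 5.28 FPKM, a ratio of 1.91 (1.56 to 2.34), and Ccne1 at 5.30 and 3.11 FPKM, a ratio of 1.71 (1.19 to 2.47). Cdk2 itself had a ratio of 1.41 (1.25 to 1.60) and Cdc25a, the phosphatase that activates it, 1.56 (1.31 to 1.85). The 4 genes had a median log2 difference of 0.57. E2f4, the E2F factor best known from resting cells, stood at 57.1 and 54.9 FPKM with an interval of 0.965 to 1.12, and the pocket protein gene Rbl2, also best known from resting cells, was higher at 123 against 91.2 FPKM, a ratio of 1.353 (1.28 to 1.43). The 6 genes for p27 and cyclin turnover other than Cks1b lay on both sides of 1. Rnf123 had a ratio of 0.870 (0.826 to 0.917), Skp1a 0.927 (0.869 to 0.989) and Fbxw7 1.17 (1.07 to 1.28), while the intervals of Skp2, Cul1 and Ambra1 included 1. Mnat1, a subunit of the CDK-activating kinase, had the lowest difference of the list, at 7.52 against 9.41 FPKM, a ratio of 0.799 (0.692 to 0.922).

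**Figure D4:**
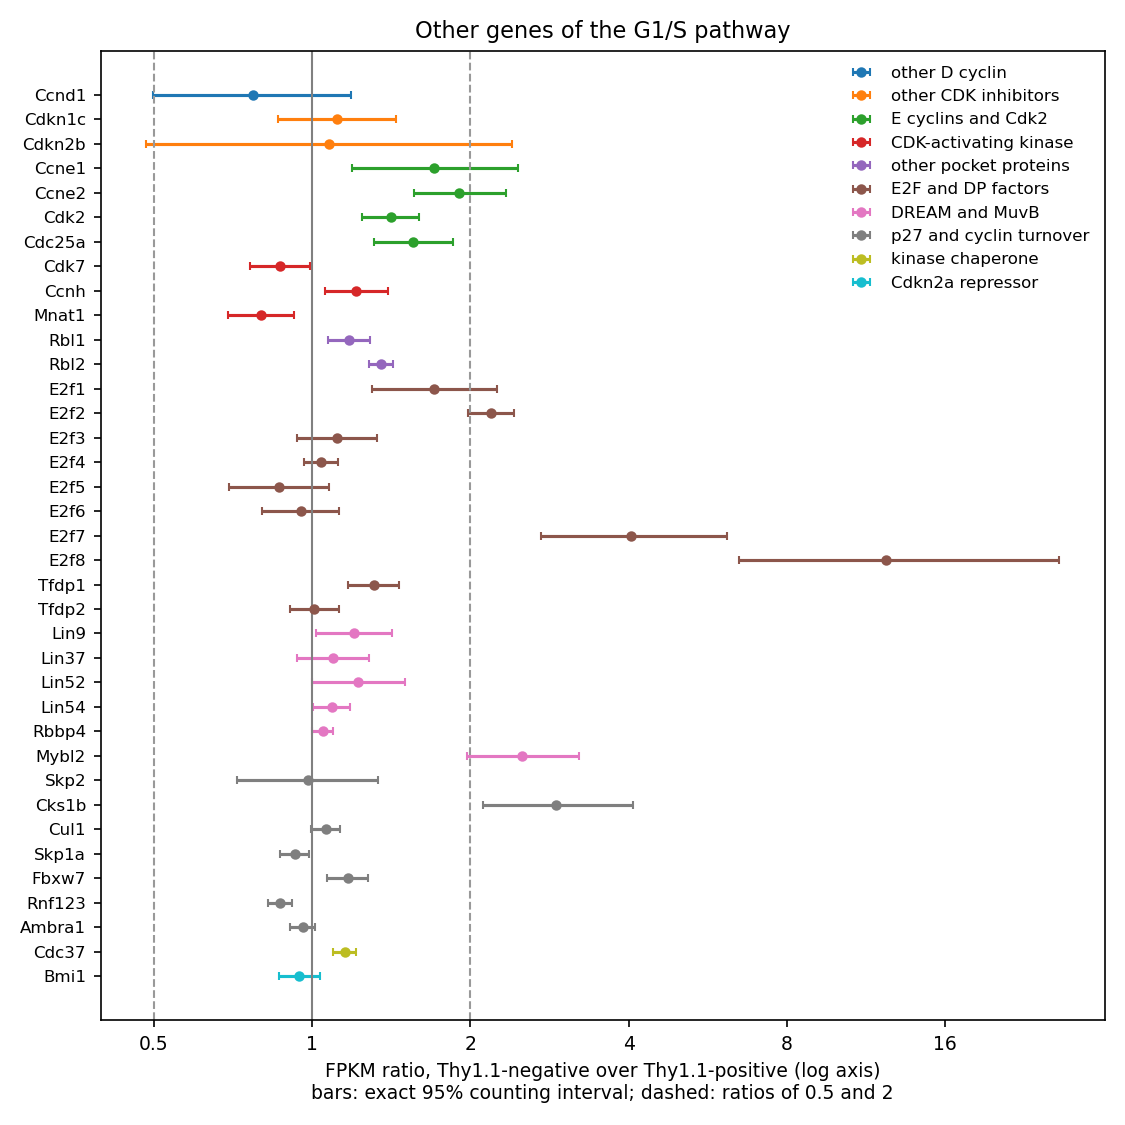
FPKM ratio, Thy1.1-negative over Thy1.1-positive (log axis), of the 37 other G1/S genes coloured by role, with exact 95% counting intervals and dashed lines at 0.5 and 2. E2f8 and E2f7 lie farthest right, the E cyclins lie between 1 and 2, and the CDK-activating kinase genes lie on both sides of 1.

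Most genes of the S, G2 and M phases had higher levels in Thy1.1-negative cells. Of 18 E2F target genes, 16 lay above 0 and 3 were 2-fold higher, beside 55.1% and 1.93% of all genes, with a median log2 difference of 0.52: Rrm2, the ribonucleotide reductase subunit, at 22.8 against 3.74 FPKM, Ccna2, cyclin A2, at 6.15 against 0.464 FPKM, and Cdk1 at 5.61 against 1.49 FPKM. Tk1 had the lowest difference, at 24.6 against 28.6 FPKM, and its log2 difference was -0.21. All 16 genes of the G2 and M phases lay above 0 and 13 were 2-fold higher, beside the same 55.1% and 1.93%, with a median of 1.63, led by Aurkb, a mitotic kinase, at 7.75 against 0.508 FPKM, Mki67, a marker of cycling cells, at 13.4 against 1.49 FPKM, and Birc5, survivin, at 4.76 against 0.276 FPKM. Bub1b, a spindle checkpoint kinase, had the lowest difference of these 16, at 12.1 against 6.63 FPKM. Most of the 13 G2 and M phase genes past 2-fold, Aurkb and Birc5 among them, were below 1 FPKM in the Thy1.1-positive library, as was Ccna2 of the E2F targets. Such genes passed the minimum mean only through the library where they are high, which bears on these counts. The ratio of Cdkn2c to Mki67 was 0.605 in Thy1.1-negative and 2.39 in Thy1.1-positive cells. The part that the number of cycling cells has in the higher Cdkn2c level was not tested, since in bulk RNA more cells with a transcript and more transcript per cell cannot be told apart.

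The p53 and quiescence lists had medians near 0 as deposited. Of 15 measured p53 pathway genes, 8 lay above 0 and none passed 2-fold, close to the 55.1% and 3.08% of all genes, with a median of 0.04; Ccng1, a p53 target, had the largest difference, at 53.6 against 35.1 FPKM, and Gadd45a, a stress-induced target, the lowest, at 26.2 against 37.4 FPKM. Trp53 itself stood at 51.8 and 56.9 FPKM. Of 10 quiescence factors, 4 lay above 0 and none passed 2-fold, beside the same shares of all genes, with a median of -0.05 that turned to 0.20 under upper-quartile scaling, a distance of -0.06 to the median of all genes there. Slfn2 had the largest difference, at 86.8 against 54.3 FPKM, and Foxp1 the lowest, at 172 against 216 FPKM. Foxo1, which encodes an activator of the p27 gene in resting cells, stood at 118 and 111 FPKM.

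**Figure D5:**
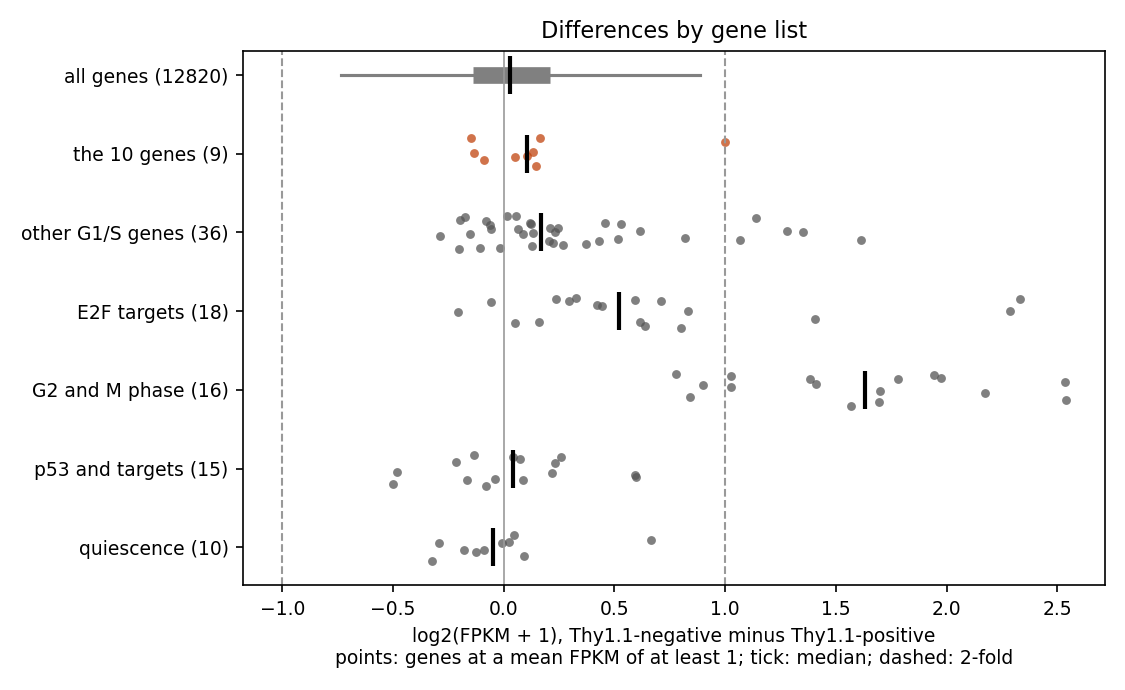
Difference in log2(FPKM + 1), Thy1.1-negative minus Thy1.1-positive, of each gene with a mean of at least 1 FPKM by list, with the number of genes in brackets, a tick at the median and dashed lines at 2-fold; for all genes the thick bar spans the middle 50% and the thin line the middle 95%. Of the 9 measured members 8 lie near 0 and Cdkn2c lies at 0.998, while the G2 and M phase genes have a median of 1.63.

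All 4 T cell markers and all 4 Treg markers were above 1 FPKM in both libraries. The T cell markers summed to 2224 and 1653 FPKM. Of the Treg markers, Il2ra, the interleukin-2 receptor alpha chain, was past 2-fold lower in Thy1.1-negative cells, at 98.8 against 204.9 FPKM, while Foxp3 stood at 158 and 237 FPKM, Ikzf2 at 327 and 362 FPKM and Ctla4 at 1156 and 1105 FPKM. Several markers of other cell types were higher in the same library as Cdkn2c, as was the T cell sum. Past 2-fold higher were Itgam, a myeloid integrin, at 4.17 against 0.272 FPKM (229 and 15 reads), Klrb1c, a natural killer receptor, at 2.08 against 0.445 FPKM, and Prdm1, which plasma cells and effector T cells express, at 15.01 against 6.62 FPKM. Hbb-bs, a globin gene, was past 2-fold lower at 0.747 against 2.51 FPKM, from 8 and 27 reads. The myeloid markers Lyz2 (7 and 5 reads), Csf1r (9 and 9) and Cd14 (6 and 2) were barely detected in either library. The summed levels were 68.3 and 50.8 FPKM for 5 myeloid markers (2 with a mean of at least 1 FPKM), of which Cst3 gave 63.5 and 50.1. For 3 plasma cell markers (2) they were 18.96 and 9.46 FPKM, of which Prdm1 gave 15.01 and 6.62. Jchain, another of these plasma cell markers, was lower in Thy1.1-negative cells, at 0.440 and 0.779 FPKM, from 18 and 32 reads. The sums were 87.2 and 64.5 FPKM for 4 stromal or endothelial markers (2), of which Pecam1 gave 84.8 and 63.5, and 0.654 and 0.403 FPKM for 4 dendritic cell markers (0). The 2 CD8 markers (1) summed to 4.78 and 4.49 FPKM and the 4 natural killer markers (2) to 4.45 and 3.71 FPKM, with Eomes at 2.22 and 2.996 and Ncr1 at 0 in the Thy1.1-negative library. Other markers with a mean of at least 1 FPKM were Cd79b at 6.45 and 3.97, Cd79a at 1.63 and 2.07, Sdc1 at 3.51 and 2.06 and Col1a1 at 1.73 and 0.694 FPKM. The part of other cells in the Cdkn2c difference was not tested. Exon bases shared with a gene on the opposite strand made up 19.7% of Cdk4, 14.9% of Rb1, 7.86% of Ccnd2, 7.68% of Cdkn1a, 4.11% of Ccnd3 and 2.63% of Cdk6 in GENCODE M21, and none of the 4 other members. Whether counting used strand is not given, so reads in those bases cannot be assigned, and Ccnd3 also has an annotated pseudogene, Ccnd3-ps.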

How the data were processed

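Each population gave 1 RNA-seq library (NEBNext Ultra, 3 µg input RNA, per the labels). FPKM values for both were deposited as 1 table, and its column letters P and N were taken to mean positive and negative for Thy1.1. Bowtie2 2.2.3, TopHat2 2.0.12, HTSeq 0.6.1 and mm9 are named in the submitters' processing notes; no source used here gives their settings or any filter. Symbols matched 96.8% of row IDs through GENCODE M21.

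Whole reads were recovered from the FPKM values. The ratio of a gene's values was a ratio of whole numbers times 1.0035, within 2e-12, and the totals came from 720 genes whose length equalled their summed exons. A gene's reads were the multiple giving a whole length nearest its mean transcript length. Recovered reads made up 100.2% and 100.1% of the totals. Sums above the totals mean that the recovery is not exact for every gene, and the genes concerned were not identified. Cdkn1a could also have 1854 and 1983 reads. Intervals are exact (Clopper-Pearson for ratios, Poisson for levels, conditional for pairs of genes) or normal approximations (class sums), at 95%, from scipy 1.17.1. Read recovery and the rule of size were tried on simulated data whose gene lengths equalled the mean transcript lengths, with the total given. That simulation could not check the choice of multiple where the length differs from this mean, as for Ccnd2 (5701 against 1638.6 bases).

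With 1 library a group no test was possible. All 10 members are named. Of each list the genes past 2-fold (beyond 6, the 3 with the largest absolute difference) and its extremes are named, with G1/S genes by role. Trp53, Foxo1 and single marker genes were named after their values were seen; some marker results are not reported here. The members and lists were chosen with earlier results of these data known. Alternatives were other pseudocounts, filters, fold rules and scalings; the FPKM ratio without a pseudocount and other gene lengths were added after the data were seen.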

Additional observations from a re-analysis of the deposited data

How the results depend on the processing

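With 1 library per population only counting error could be estimated. It depends on reads, which ran from 9 and 4 for Cdkn2a to 5870 and 5463 for Cdkn1b. No paired analysis was possible because each population has 1 library. No member was past the rule downward under any setting. Upward, 1 member (Cdkn2c) passed 2-fold with a pseudocount of 0.1, scaling by the upper quartile or the FPKM ratio without a pseudocount, the last chosen after seeing the data, and 1 member (Cdkn2c) passed a 1.5-fold rule; with a pseudocount of 5 Cdkn2c lay at 0.62. Scaling by the upper quartile gave log2 differences of 0.12 for Ccnd2, 0.11 for Ccnd3, 0.40 for Cdk4, 0.40 for Cdk6, 0.16 for Cdkn1a, 0.36 for Cdkn1b, 0.30 for Cdkn2d and 0.39 for Rb1. Of 60 member values under other settings, those 3 of Ccnd2, Ccnd3 and Cdkn1a had the other sign.

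Higher G1/S genes numbered 0 with a pseudocount of 5 or a 4-fold rule and 3 of the 27 at a mean FPKM of at least 5. Higher E2F targets numbered 1 of the 14 at a mean FPKM of at least 5, 9 by a 1.5-fold rule and 5 by the upper quartile. By the 1.5-fold rule 2 p53 genes and 1 quiescence gene were higher. Higher G2 and M phase genes numbered 4 with a pseudocount of 5, 4 of the 6 at a mean FPKM of at least 5 and 3 by a 4-fold rule. Over all genes, higher and lower counts of 247 and 148 became 402 and 293 with a pseudocount of 0.1, 72 and 19 with one of 5, 107 and 60 of the 8929 at a mean FPKM of at least 5, 745 and 493 by a 1.5-fold rule, 31 and 9 by a 4-fold rule, 412 and 90 by the upper quartile, and 459 and 305 by the ratio without a pseudocount. The median of all genes was -0.0055 when centred on the median of better expressed genes (minimum 5 FPKM) and -0.0028 without the 100 highest genes, and that of the quiescence genes 0.20 by the upper quartile. Without the highest member of each class, the CIP/KIP to D cyclin ratio between libraries was 1.03 and the INK4 to D cyclin ratio 2.4995. The cause of these changes was not tested.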
